A study of Mus with 6 samples.

Results

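The mRNAs of 8 ion channel genes were followed in 4T1 cells, a mouse mammary carcinoma line, exposed to isopimaric acid (IPA) or left untreated. The 8 genes were given by Ensembl ID and symbol, by a rule that uses no measured value except a minimum of 10 counts in total: Kcnma1 and Kcnn4 (potassium channels), Trpm7, Trpv4 and P2rx4 (cation channels), and Ano1, Ano6 and Lrrc8a (chloride and volume-regulated anion channels and a scramblase). They were, however, chosen with earlier results of these data known. All 8 were among the 35304 gene IDs of the count table, with 1163 to 53889 counts each over the 6 libraries, and all 8 passed the filter on low counts, as did 24935 IDs in all. 3 samples received 10 µg/mL IPA, a diterpene acid from conifer resin, for 24 h, and 3 received no treatment, with the vehicle not named in the labels. Both groups grew in medium with fetal bovine serum, and the labels name one line, no clone and no genetic change. The labels do not say if replicates were separate cultures, and the p-values therefore cover the spread of these samples alone, which could be technical.

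Ion channels of the plasma membrane set the membrane potential and the flow of calcium, chloride and water, and tumour cells use them in migration, volume control and division. Kcnma1 encodes the pore of the BK channel, the large-conductance potassium channel that opens on depolarization and on a rise in cytosolic calcium, and IPA is known as an opener of this channel. Opening a channel and making more or less of its mRNA are different things, and only the second was measured here. Calcium that enters through TRP and P2X channels can open Kcnma1, Kcnn4 and Ano1, and whether such a link acts in these cells was not tested.

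Each level below is in CPM, the count scaled to a common total by the library's own total. The totals ran from 3410411 counts (IPA replicate 1) to 58924711 counts (untreated replicate 2), and 3 counts correspond to 0.88 CPM in the shallowest library and 0.0509 CPM in the deepest. Over all tested IDs, untreated replicate 2 was unlike the others: its correlations with them in log2 CPM were 0.779 to 0.811, against 0.922 to 0.987 among those 5. Each fitted fold change and each tested difference described below is therefore given with it and without it. Gene names are not paired with IDs in the files, so lists by symbol of other channel genes and of markers of mammary and other cell types were not analysed here, and the identity of the cells was not checked by markers. CPM values were not compared between genes, since transcript lengths were not used here. In bulk RNA, fewer cells that express a gene and less of its RNA per cell cannot be told apart.

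None of the 8 genes passed the test in the comparison of IPA with untreated cells. Over all 6 libraries edgeR's quasi-likelihood test, adjusted by Benjamini-Hochberg over all tested IDs, called 0 of the 8 higher and 0 lower at an adjusted p under 0.05. The background of that test was 0% of 24935 IDs called higher and 0% called lower. Before adjustment 0 of the 8 genes had a p under 0.05, against 1560 of all IDs, or 6.26%. On the same libraries limma-voom called 0 IDs, and DESeq2 called 44 higher (0.176%) and 82 lower (0.329%), with no member among them. Without untreated replicate 2, edgeR again called 0 of the 8 genes in either direction, where it called 322 of 25592 IDs higher (1.26%) and 564 lower (2.2%). In that comparison 2 of the 8 genes, Trpv4 and P2rx4, had an unadjusted p under 0.05, as did 16.8% of all IDs. The median log2 fold change of the 8 genes was 0.23 over all 6 libraries, against -0.08 over all tested IDs, and 0.10 without untreated replicate 2, against -0.04.

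The CPM ranges of the groups did not overlap for 3 of the 8 genes, Trpv4, Ano1 and P2rx4, each higher in all 3 IPA libraries than in all 3 untreated ones. Of all tested IDs, 15.7% were higher without overlap and 6.38% lower without overlap. The other 5 genes overlapped, and no member was lower without overlap. In the exact permutation test of CPM over all 6 libraries, any gene without overlap has a two-sided p of 0.1. For the 5 overlapping genes that test gave a p from 0.2 (Ano6) to 0.9 (Lrrc8a). Without untreated replicate 2 the exact permutation p of those genes was 0.4 (Ano6) or more. The lowest p that the 5 libraries allow is also 0.1.

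**Figure D1:**
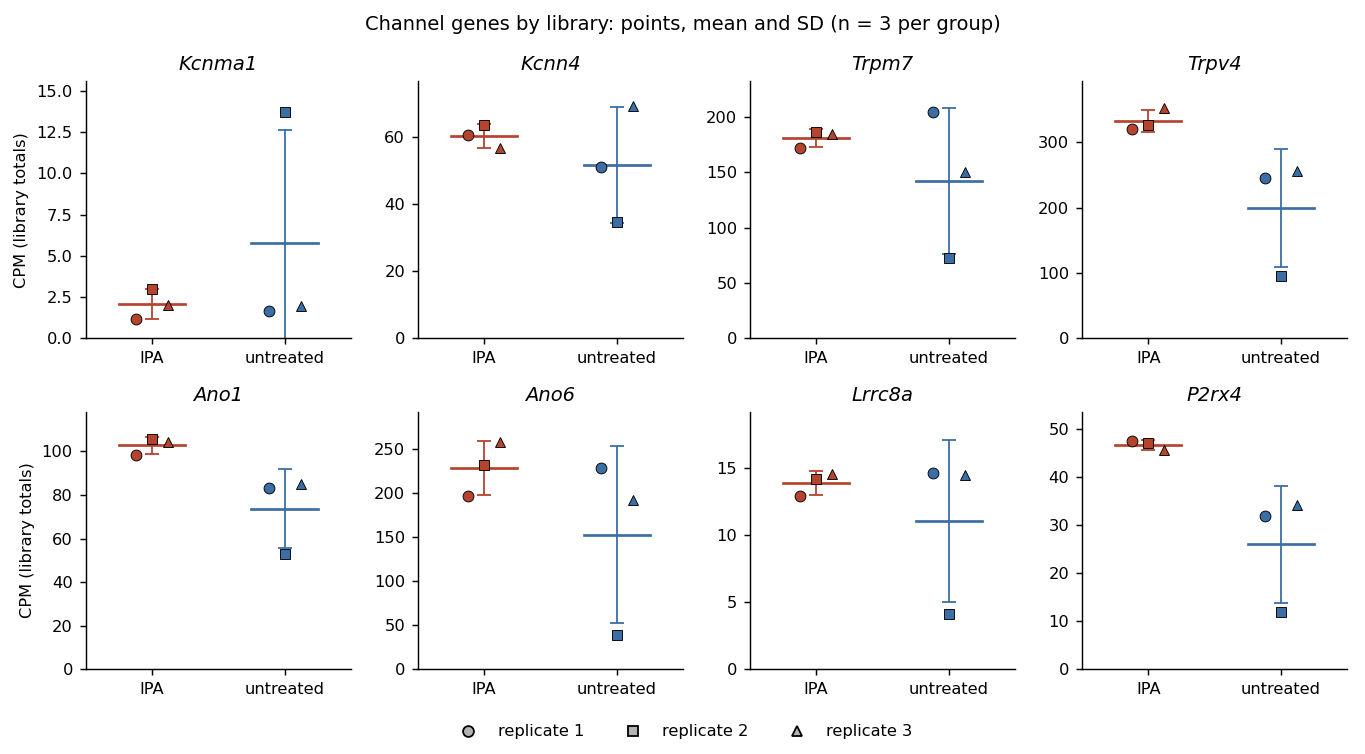
CPM (library totals) of the 8 channel genes on the vertical axes, by group on the horizontal axes, with 1 point per library shaped by replicate number, the group mean as a line and the SD as a bar (n = 3 per group; bars that would go below 0 are cut at 0). Untreated replicate 2 is the lowest of the 6 libraries for 7 genes and the highest for Kcnma1, and the IPA points of Trpv4, Ano1 and P2rx4 all lie above the untreated ones.

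Kcnma1 (ENSMUSG00000063142; GRCm38 chr14:23292288-24005110) was scarce. Its level was 1.17, 2.98 and 2.05 CPM in IPA replicates 1, 2 and 3, against 1.63, 13.7 and 1.99 CPM in untreated replicates 1, 2 and 3. Only untreated replicate 2 was high, and the other 5 libraries lay within 2.54-fold of each other with the groups overlapping. IPA replicate 1 rests on 4 counts, for which the exact Poisson interval runs from 0.32 to 3.00 CPM, an interval that holds the values of the other 4 of those 5 libraries. Untreated replicate 2 held 807 counts, with an interval of 12.8 to 14.7 CPM, outside the intervals of all other libraries; these intervals cover counting error only. Group means were 2.07 ± 0.905 CPM with IPA and 5.77 ± 6.87 CPM untreated (SD, n = 3 each). The fitted log2 fold change was -1.86 ± 1.01 (SE; edgeR adjusted p = 0.657) over all 6 libraries and 0.23 ± 0.39 without untreated replicate 2 (edgeR adjusted p = 0.854). The sign of the Kcnma1 estimate thus rested on 1 library. Without it the interval of the fold ran from 0.664 to 2.07, so a halving was outside it and a doubling was inside it.

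The gene spans 712823 bp and has 55 RefSeq transcripts in the reference table, 22 of them curated; the BK channel is known for its many splice forms. The deposited values are per gene, so which forms are present was not analysed here. 4 other annotated genes lie within or across the span, 3 of them long noncoding RNAs and 1 a pseudogene, and whether reads were counted by strand is not given in the sources used here. Whether reads from these genes were among the few assigned to Kcnma1 was not tested.

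The pattern most like that of Kcnma1 over the 6 libraries belonged to ENSMUSG00000030551, with a Pearson correlation of 0.9997 in TMM-scaled log2 CPM with a prior count of 2, and to ENSMUSG00000116088, with 0.998. Over the 5 libraries other than untreated replicate 2 these correlations were 0.9970 and 0.9902. On library totals the first stood at 5.57, 8.17 and 6.68 CPM in IPA replicates 1, 2 and 3, against 6.07, 12.4 and 6.64 CPM in untreated replicates 1, 2 and 3. Like Kcnma1, it was highest in untreated replicate 2. Of 24927 IDs compared, 33 had a correlation over 0.99. The files do not name these IDs, and with 6 libraries, 1 of them apart, the measure is a description of likeness only.

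Kcnn4 (ENSMUSG00000054342; GRCm38 chr7:24369826-24385212) encodes the intermediate-conductance potassium channel, which opens through bound calmodulin when calcium rises. It had 60.7, 63.5 and 56.6 CPM in IPA replicates 1, 2 and 3, against 51.1, 34.7 and 69.2 CPM in untreated replicates 1, 2 and 3. The IPA libraries lay inside the untreated range. The mean was 60.3 ± 3.47 CPM with IPA and 51.7 ± 17.3 CPM untreated (SD, n = 3 each). Its log2 fold change was 0.02 ± 0.22 (edgeR adjusted p = 0.973) and -0.11 ± 0.15 without untreated replicate 2 (edgeR adjusted p = 0.81). The interval of the fold without that library, 0.75 to 1.15, leaves out changes as large as a doubling or a halving.

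Among the cation channels, Trpv4 (ENSMUSG00000014158; GRCm38 chr5:114622152-114658435) encodes a calcium-permeable channel opened by cell swelling, warmth and lipid messengers. It had 320, 326 and 352 CPM in IPA replicates 1, 2 and 3, against 246, 94.8 and 257 CPM in untreated replicates 1, 2 and 3. All 3 IPA libraries exceeded all 3 untreated ones, and the distance was widest to untreated replicate 2. Means were 333 ± 16.6 CPM with IPA and 199 ± 90.4 CPM untreated (SD, n = 3 each), a difference of 134 CPM with a two-sided p of 0.1 in the exact permutation test, the lowest value this design allows (0.267 adjusted over the 8 genes). That difference was 81.6 CPM without untreated replicate 2 (exact permutation p = 0.1, again the lowest possible). The log2 fold change was 0.58 ± 0.30 (edgeR adjusted p = 0.657), and 0.30 ± 0.13 without untreated replicate 2 (edgeR adjusted p = 0.236). That second estimate is a fold of 1.23, with an interval of 1.02 to 1.49. It lay at percentile 79.8 of the log2 fold changes of all tested IDs.

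P2rx4 (ENSMUSG00000029470; GRCm38 chr5:122707518-122729739) encodes an ATP-gated channel that passes sodium and calcium at the cell surface and in lysosomes. Its level was 47.5, 47.2 and 45.5 CPM in IPA replicates 1, 2 and 3, against 31.8, 11.9 and 34.2 CPM in untreated replicates 1, 2 and 3. The 3 IPA libraries lay within 2 CPM of each other and above every untreated library. Means were 46.7 ± 1.06 CPM with IPA and 26 ± 12.2 CPM untreated (SD, n = 3 each), and the exact permutation test of the difference of 20.7 CPM gave a two-sided p of 0.1 (0.267 adjusted over the 8 genes). It was 13.7 CPM without untreated replicate 2 (exact permutation p = 0.1, again the lowest possible). The log2 fold change was 0.68 ± 0.31 (edgeR adjusted p = 0.657) and 0.39 ± 0.15 without untreated replicate 2 (edgeR adjusted p = 0.163), a fold of 1.31 with an interval of 1.06 to 1.63. It stood at percentile 84.8 of all tested IDs there, the highest of the 8 genes. P2rx4 overlaps the gene Camkk2, which encodes a calcium/calmodulin-dependent kinase kinase, over 11360 bp of the reference annotation. That overlap is of whole gene spans, and whether exons overlap was not examined. Where counting ignores strand, reads in exons that both genes share cannot be assigned to one gene. The part of this in the P2rx4 values was not tested. P2rx4 and Trpv4 lie on the same chromosome, 8.05 Mb apart.

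Trpm7 (ENSMUSG00000027365; GRCm38 chr2:126791558-126876261) encodes a magnesium- and calcium-permeable channel joined to a protein kinase. It had 172, 187 and 185 CPM in IPA replicates 1, 2 and 3, against 204, 72.5 and 150 CPM in untreated replicates 1, 2 and 3. Untreated replicate 1 was the highest library of all and untreated replicate 2 the lowest, so the IPA values lay between untreated ones. Means were 181 ± 8.01 CPM with IPA and 142 ± 66.2 CPM untreated (SD, n = 3 each). The log2 fold change was 0.18 ± 0.29 (edgeR adjusted p = 0.839) and -0.07 ± 0.14 without untreated replicate 2 (edgeR adjusted p = 0.878). Without that library the sign of the estimate also depended on scaling, since library totals in place of TMM factors gave 0.04. The fold interval without it was 0.772 to 1.17.

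Of the anion channel genes, Ano1 (ENSMUSG00000031075; GRCm38 chr7:144588549-144752026) encodes the calcium-activated chloride channel TMEM16A, which is amplified in some human carcinomas. It had 98.2, 106 and 104 CPM in IPA replicates 1, 2 and 3, against 83.2, 52.8 and 85 CPM in untreated replicates 1, 2 and 3. Again all 3 IPA libraries were above all 3 untreated ones. Means were 103 ± 3.98 CPM with IPA and 73.7 ± 18.1 CPM untreated (SD, n = 3 each), a difference of 29.1 CPM with a two-sided p of 0.1 in the exact permutation test (0.267 adjusted over the 8 genes). The difference was 18.6 CPM without untreated replicate 2 (exact permutation p = 0.1, again the lowest possible). The log2 fold change was 0.28 ± 0.18 (edgeR adjusted p = 0.663), and 0.19 ± 0.13 without untreated replicate 2 (edgeR adjusted p = 0.531), where the fold of 1.14 had an interval of 0.944 to 1.37. That interval includes no change, although the CPM values of the 5 libraries did not overlap either. A share of 19.8% of all IDs was higher with IPA without overlap in those 5 libraries. A long noncoding RNA gene overlaps one end of Ano1 in the annotation.

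Ano6 (ENSMUSG00000064210; GRCm38 chr15:95790843-95975472) encodes TMEM16F, which moves phospholipids between the leaflets of the membrane when calcium rises and also conducts ions. It had 196, 232 and 257 CPM in IPA replicates 1, 2 and 3, against 228, 38.6 and 192 CPM in untreated replicates 1, 2 and 3. The groups overlapped, and untreated replicate 2 was 5.43-fold below the mean of the other untreated libraries, the widest such gap among the 7 genes that were lower there. Means were 228 ± 30.8 CPM with IPA and 153 ± 100.4 CPM untreated (SD, n = 3 each). The log2 fold change of 0.45 ± 0.50 over all 6 libraries (edgeR adjusted p = 0.769) was 0.02 ± 0.14 without untreated replicate 2 (edgeR adjusted p = 0.971), with a fold interval of 0.823 to 1.25. 3 long noncoding RNA genes overlap Ano6 in the annotation.

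Lrrc8a (ENSMUSG00000007476; GRCm38 chr2:30237769-30263790) encodes the obligatory subunit of the volume-regulated anion channel, which lets chloride and small organic molecules out of swollen cells. It had 12.9, 14.2 and 14.6 CPM in IPA replicates 1, 2 and 3, against 14.6, 4.11 and 14.5 CPM in untreated replicates 1, 2 and 3. Apart from untreated replicate 2, all libraries lay within 1.13-fold of each other, the narrowest spread of the 8 genes. Means were 13.9 ± 0.864 CPM with IPA and 11.1 ± 6.03 CPM untreated (SD, n = 3 each). The log2 fold change was 0.18 ± 0.41 (edgeR adjusted p = 0.881) and -0.16 ± 0.20 without untreated replicate 2 (edgeR adjusted p = 0.788), and the fold interval without it was 0.668 to 1.20.

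**Figure D2:**
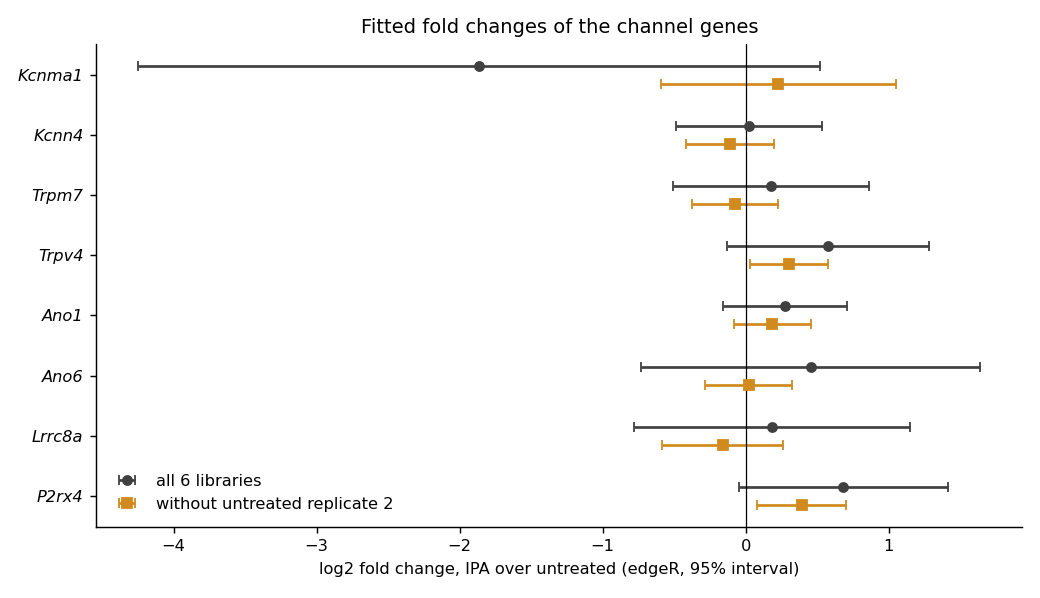
Log2 fold change of IPA over untreated on the horizontal axis for each of the 8 channel genes, as fitted by edgeR over all 6 libraries (circles) and without untreated replicate 2 (squares), with 95% intervals. All 8 intervals over 6 libraries include 0, and without that library the intervals of Trpv4 and P2rx4 lie above 0 before adjustment over all IDs.

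The precision of the comparison differed by library set. Over all 6 libraries the 95% interval of the fold lay inside 0.5 to 2 for 3 of the 8 genes, Kcnn4, Trpm7 and Ano1. Without untreated replicate 2 it did so for 7, the exception being Kcnma1. For those 7 genes, changes of mRNA as large as a doubling or halving were outside the interval, within the limits of 2 untreated libraries. Without untreated replicate 2, the fitted folds of Trpv4 and P2rx4 were below their ratios of CPM. The TMM factors there were 1.02 to 1.04 in the IPA libraries, against 0.947 and 0.965 in untreated replicates 1 and 3. The ratio of the CPM means of those libraries was 1.42 for P2rx4 and 1.32 for Trpv4.

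The spread within groups was unequal. The SD of the untreated libraries exceeded that of the IPA libraries for all 8 genes. Within the IPA group the coefficient of variation ran from 2.27% (P2rx4) to 13.5% (Ano6) for 7 genes and was 43.8% for Kcnma1, and within the untreated group it ran from 24.5% (Ano1) to 119% (Kcnma1). Untreated replicate 2 had the lowest CPM of all 6 libraries for 7 genes and the highest for Kcnma1. For Kcnn4 and Trpm7 the untreated spread did not come from that library alone. Untreated replicates 1 and 3 stood at 51.1 and 69.2 CPM for Kcnn4 and at 204 and 150 CPM for Trpm7, further apart than the IPA libraries. For P2rx4 they stood at 31.8 and 34.2 CPM, slightly further apart than the IPA libraries. For Kcnma1, Trpv4, Ano1, Ano6 and Lrrc8a, untreated replicates 1 and 3 were closer together than the IPA libraries.

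On TMM-scaled log2 CPM, untreated replicate 2 lay below the mean of untreated replicates 1 and 3 for 7 genes and above it for Kcnma1. The differences were 3.33 for Kcnma1, -0.34 for Kcnn4, -0.83 for Trpm7, -0.96 for Trpv4, -0.23 for Ano1, -1.995 for Ano6, -1.38 for Lrrc8a and -1.03 for P2rx4. Over all tested IDs the median of this difference was -0.11 and the interquartile range ran from -1.28 to 0.99. Kcnma1 was above that range, at percentile 97.3 of all tested IDs. Ano6 and Lrrc8a were below it, at percentiles 17.2 and 23.7. The other 5 genes were inside it.

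**Figure D3:**
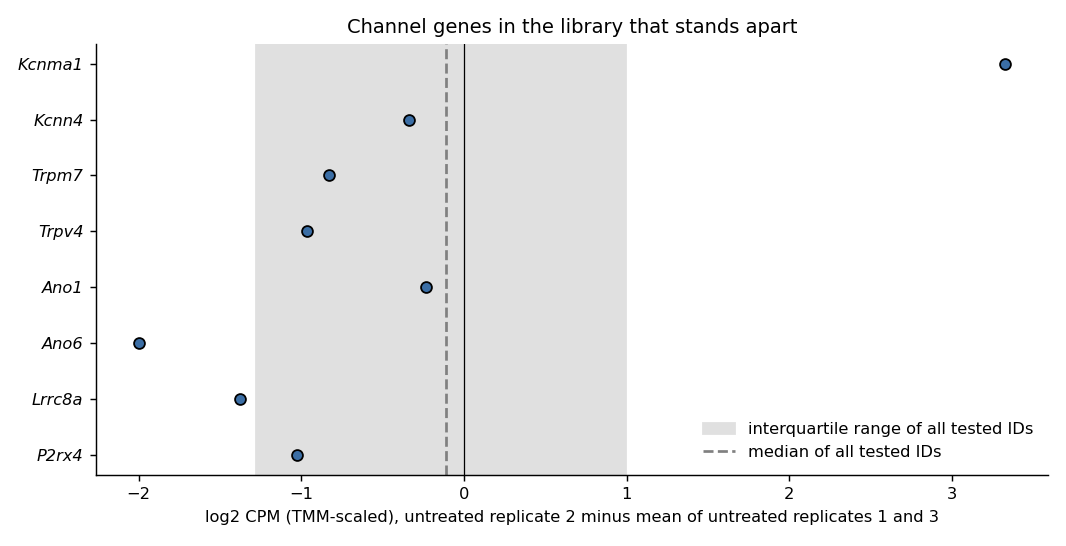
TMM-scaled log2 CPM of untreated replicate 2 minus the mean of untreated replicates 1 and 3, on the horizontal axis, for each of the 8 channel genes (points); the grey band is the interquartile range of all tested IDs, from -1.28 to 0.99, and the dashed line their median, -0.11. Kcnma1 lies far to the right of the band at 3.33, and Ano6 and Lrrc8a lie to its left.

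The members were also set against each other inside each library, which removes the scaling between libraries; this measure was chosen after the CPM values were seen. Together the 8 genes took 909, 978 and 1017 CPM in IPA replicates 1, 2 and 3, against 860, 323 and 804 CPM in untreated replicates 1, 2 and 3. Of those summed reads Trpv4 held 35.3%, 33.3% and 34.6% in the IPA libraries, against 28.6%, 29.3% and 32% in the untreated libraries. P2rx4 held 5.23%, 4.82% and 4.48% in the IPA libraries, against 3.70%, 3.69% and 4.26% in the untreated libraries. For these 2 of the 8 genes the groups did not overlap over all 6 libraries, and no background over all IDs was computed for this measure. Untreated replicate 2 was close to the other untreated libraries for both, unlike in CPM. The mix of the 8 genes still differed in that library, with Kcnma1 at 4.24% and Ano6 at 11.9%, against 0.189% and 26.5% in untreated replicate 1. These shares are therefore not free of the differences of that library. Each difference, 4.45 percentage points for Trpv4 and 0.959 for P2rx4, had a two-sided p of 0.1 in the exact permutation test, the smallest possible, and 0.4 adjusted over the 8 genes. The differences without untreated replicate 2 were 4.14 points for Trpv4 (exact permutation p = 0.1) and 0.862 points for P2rx4 (exact permutation p = 0.2). The lowest p possible without that library is also 0.1. The shares of the other 6 genes overlapped between the groups over all 6 libraries. Ano1 was among them, with 10.8%, 10.8% and 10.3% in the IPA libraries, against 9.68%, 16.3% and 10.6% in the untreated libraries. Without untreated replicate 2, Lrrc8a was lower with IPA without overlap. It held 1.42%, 1.45% and 1.43% in IPA replicates 1, 2 and 3, against 1.70% and 1.80% in untreated replicates 1 and 3. Its difference was -0.319 points there (exact permutation p = 0.1) and -0.158 points over all 6 libraries (exact permutation p = 0.4). For the remaining genes the exact permutation p without untreated replicate 2 was 0.3 or more. Shares within a set sum to a whole, so a higher share of one gene lowers those of the others.

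**Figure D4:**
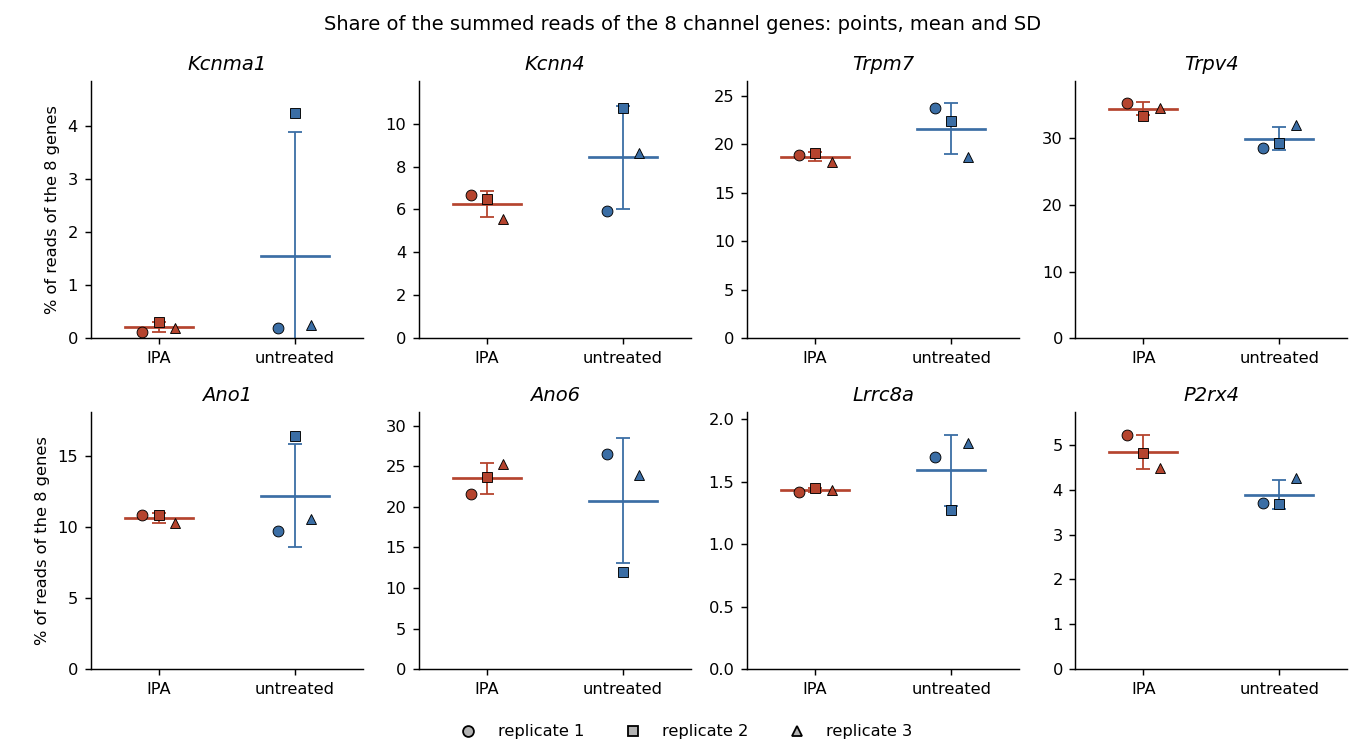
Percent of the summed reads of the 8 channel genes held by each gene (vertical axes) by group (horizontal axes), with 1 point per library shaped by replicate number, the mean as a line and the SD as a bar (n = 3 per group; bars that would go below 0 are cut at 0). Trpv4 and P2rx4 are the genes whose IPA points all lie above the untreated points. Untreated replicate 2 departs from the other libraries for Kcnma1, Ano1 and Ano6. That library is also the highest for Kcnn4 and the lowest for Lrrc8a and, narrowly, for P2rx4.

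Leaving out untreated replicate 2 gave a lower log2 fold change for 7 genes and a higher one for Kcnma1. Over 21 other settings no member was called in any. With untreated replicate 2 left out, 0 of the 8 genes were called in either direction by DESeq2, which called 2.6% of all IDs higher and 2.52% lower. The same was so for limma-voom, with 2.58% higher and 3.94% lower, and for edgeR with library totals, with 2.7% higher and 1.28% lower. Without IPA replicate 1 as well, edgeR called 0 of the 8 genes, against 2.88% of all IDs higher and 3.05% lower. Trpv4, Ano1, Ano6 and P2rx4 had a positive log2 fold change in all 21, from 0.29 to 0.76 for Trpv4, from 0.17 to 0.48 for Ano1, from 0.01 to 0.85 for Ano6 and from 0.38 to 0.89 for P2rx4. The settings reuse the same 6 libraries, so a shared sign is not repeated evidence. How many of all IDs keep one sign over the settings was not counted. The estimates of Kcnma1, Kcnn4, Trpm7 and Lrrc8a were positive in some settings and negative in others. The lowest adjusted p of any member was 0.0633, for P2rx4 with edgeR, library totals and untreated replicate 2 left out; its adjusted p-values over the 21 settings ran from there to 0.998. For Trpv4 they ran from 0.0806, under that same setting, to 0.998.

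**Figure D5:**
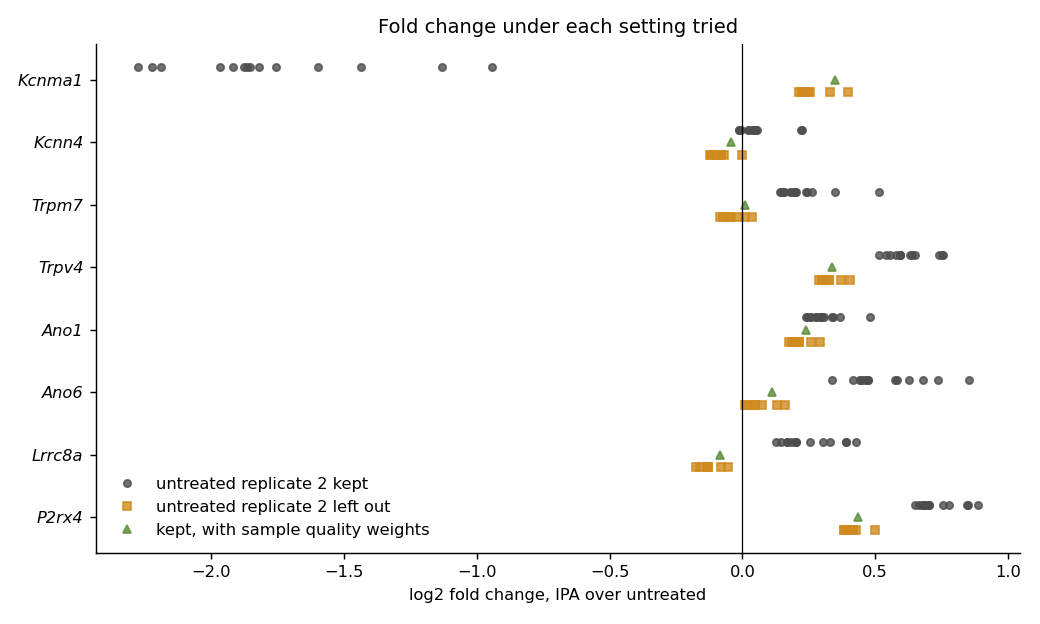
Log2 fold change of IPA over untreated (horizontal axis) for each of the 8 channel genes under the reported fit and 21 other settings, 1 point per setting. Circles keep untreated replicate 2, squares leave it out, and triangles keep it with sample quality weights, under which its weight was 0.0388; the Kcnma1 circles lie between -2.28 and -0.94 while its squares lie between 0.21 and 0.40.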

How the data were processed

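Total RNA of 6 4T1 samples was sequenced. Per the file headers and values, the deposited table holds unnormalized read counts, with 1 Ensembl ID a row, and the submitters' processing notes name the builds GRCm38 and mm10. For the aligner, counter, annotation and use of strand, the entry is: not given in the sources used here. Groups and replicate numbers came from the titles, and 3 columns with a shorter abbreviation were matched by letter and number. Gene symbols of the 8 members came with the rule that named them; their positions were looked up by symbol in a RefSeq table of GRCm38.p6, where 8 of 8 matched. That table has 0 rows with an Ensembl ID, so no other ID was named. No sequences are shown, since none were among the tables used here. Members, lists and tests were chosen with earlier results of these data known; all 8 members are named whatever their values, and the 2 IDs most like Kcnma1 were taken by correlation.

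Counts were tested with edgeR 4.0.16 (robust quasi-likelihood F-test, TMM, filterByExpr, Benjamini-Hochberg over all tested IDs) in R 4.3.3. Standard errors are the log2 fold change divided by the square root of F, and intervals use the t quantile at 95%. DESeq2 1.42.0 and limma 3.58.1 were alternatives on the same filtered IDs, beside other normalization factors and filters, the replicate number as a block, and samples left out. Log2 CPM used a prior count of 2. The procedure was run on simulated counts in which each gene had the same dispersion in every library. No simulated library was set to stand apart as untreated replicate 2 does, so that situation was not tested. No replicates agreed within sampling noise: chi-square divided by its degrees of freedom was at least 7.11 for every pair in a group.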

Additional observations from a re-analysis of the deposited data

How the results depend on the processing

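No setting called any of the 8 genes. Over all 6 libraries the numbers of IDs higher and lower with IPA were 0 and 0; they were 44 and 82 with DESeq2, 492 and 755 with limma-voom and sample quality weights, and 1 and 0 with library totals and with no filter on low counts. With 1 sample left out they ran from 0 to 322 and from 0 to 564, every count above 0 coming without untreated replicate 2. With that library left out they were 719 and 763 without IPA replicate 1 as well, 665 and 645 with DESeq2, 660 and 1009 with limma-voom, 691 and 327 with library totals, 364 and 481 with RLE factors, and 309 and 581 with upper-quartile factors. The cause of these differences, beyond leaving out that library, was not tested. With library totals the median log2 fold change of all IDs was 0.13, against -0.08 with TMM factors, and 0.06 against -0.04 without untreated replicate 2.

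Reversed signs were as follows, none past the threshold in either direction. With sample quality weights the log2 fold change was 0.35 for Kcnma1, -0.043 for Kcnn4 and -0.086 for Lrrc8a. Kcnn4 was at -0.011 with upper-quartile factors; at 1 CPM or more in 3 samples it was at -0.0048. With untreated replicate 2 left out, Kcnma1 was at 0.40 without IPA replicate 1 as well, 0.22 with DESeq2 (no adjusted p given), 0.25 with limma-voom, 0.33 with library totals, 0.25 with RLE and 0.21 with upper-quartile factors. In the same order Kcnn4 was at -0.069, -0.081, -0.12, -0.0025, -0.081 and -0.12, and Lrrc8a at -0.080, -0.13, -0.13, -0.055, -0.13 and -0.17. Trpm7 was at -0.047 with DESeq2, -0.012 with limma-voom, -0.047 with RLE and -0.083 with upper-quartile factors.

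With 1 sample left out the log2 fold change ran from -2.28 to 0.23 for Kcnma1, -0.11 to 0.23 for Kcnn4, -0.072 to 0.51 for Trpm7 and -0.16 to 0.43 for Lrrc8a. The reversed end came without untreated replicate 2 in each case; Kcnn4 also had -0.014 without IPA replicate 2. The CPM difference ran from -5.77 to 0.26 for Kcnma1 and from -0.683 to 4.57 for Lrrc8a. The difference in share of the summed reads ran from -2.84 to 0.497 points for Ano1 and from -1.66 to 5.60 for Ano6. On TMM-scaled CPM over all 6 libraries every CPM difference was smaller than on library totals, except that of Kcnma1 (-5.32 against -3.70). It was 101 against 134 CPM for Trpv4, 16.6 against 29.1 for Ano1 and 16.3 against 20.7 for P2rx4. The exact permutation p of these 3 stayed at 0.1, and that of Ano6 was 0.5 against 0.2. Kcnn4 went from 8.57 to 0.947 CPM.

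With the replicate block the counts were 0 and 0, and the log2 fold changes of the members ran from -1.13 (Kcnma1) to 0.76 (P2rx4), with the block's lowest adjusted p at 0.842. The correlations between deviations of samples with the same number were -0.0771, 0.0183 and 0.161, and 3 of 6 samples were closest to their own number, so the numbers were not taken to pair the samples. Depth limits IPA replicate 1 most.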
